A study of Mus musculus with 45 samples.

Results

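Nephrin (Nphs1), podocalyxin (Podxl) and synaptopodin (Synpo) of podocytes, platelet endothelial cell adhesion molecule (Pecam1), VE-cadherin (Cdh5), endomucin (Emcn) and the vascular endothelial growth factor (VEGF) receptors Kdr and Flt1 of endothelium, and the platelet-derived growth factor (PDGF) receptor Pdgfrb of pericytes were followed in libraries of ribosome-bound mRNA from mouse kidney. These 9 genes were chosen by name, as markers of cells in which the tubular Cre is not thought to act, from the 55401 genes counted. All 9 passed the authors' filter on low counts in both sexes and stand in the tables of counts and of TPM, a length-scaled share of the transcripts, of males and females. The libraries came from translating ribosome affinity purification (TRAP), in which EGFP-tagged ribosomes are pulled down and the mRNA on them is sequenced. Noncystic mice were Pkd1fl/+, Pkd1KO mice were Pkd1fl/fl, and Pkd1KO+ciliaKO mice were Pkd1fl/fl and Kif3afl/fl, which also removes cilia. Every mouse, the noncystic ones included, carried a single copy of R26Rpl10a, Pax8rtTA and TetOCre, received doxycycline by mouth between postnatal days 28 and 42, and was killed on day 49, at 7 weeks. There were 8 noncystic, 7 Pkd1KO and 9 Pkd1KO+ciliaKO males, and 7 noncystic, 8 Pkd1KO and 6 Pkd1KO+ciliaKO females, each mouse being 1 library. The labels call the noncystic mice WT, although all of them were Pkd1fl/+ with active Cre, and the tagged ribosomal protein L10a is made only where Cre driven by Pax8rtTA has acted, so a cell without Cre has no tagged ribosomes. Libraries of whole kidney RNA were not analysed here, so no enrichment over the tissue can be given.

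Podocytes wrap the glomerular capillaries and filter plasma through slit diaphragms built around nephrin. The glomerular and peritubular capillaries are lined by endothelial cells, which depend on VEGF made by podocytes and tubules, and are flanked by pericytes and mesangial cells that answer to PDGF. All of them lie next to the tubules and are lysed with them before ribosomes are pulled down.

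RefSeq windows of sequence ahead of the start site (GRCm38.p6) were on hand for 4 of the 9 genes, Nphs1, Emcn, Kdr and Flt1, and not for Podxl, Synpo, Pecam1, Cdh5 and Pdgfrb. They are shown because ETS factors are known regulators of endothelial genes. Whether these motifs have a part in the values below was not tested. Each run is the 250 bases before a RefSeq start site, written 5′ to 3′ on the strand of the gene. Capitals mark GGAAG, the core of the ETS family motif, or its reverse complement CTTCC. For Nphs1 that start site lies inside the gene as counted here, which begins at base 30458315 of chromosome 7. The Nphs1 window lies at chr7:30459808-30460057 on the plus strand, that of Emcn at chr3:137340828-137341077 on the plus strand, that of Kdr at chr5:75978456-75978705 on the minus strand and that of Flt1 at chr5:147726012-147726261 on the minus strand.
Nphs1: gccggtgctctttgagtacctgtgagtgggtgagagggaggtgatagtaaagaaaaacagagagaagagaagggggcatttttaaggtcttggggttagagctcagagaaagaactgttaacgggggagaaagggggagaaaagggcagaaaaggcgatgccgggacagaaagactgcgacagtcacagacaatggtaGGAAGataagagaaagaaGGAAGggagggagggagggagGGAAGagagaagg
Emcn: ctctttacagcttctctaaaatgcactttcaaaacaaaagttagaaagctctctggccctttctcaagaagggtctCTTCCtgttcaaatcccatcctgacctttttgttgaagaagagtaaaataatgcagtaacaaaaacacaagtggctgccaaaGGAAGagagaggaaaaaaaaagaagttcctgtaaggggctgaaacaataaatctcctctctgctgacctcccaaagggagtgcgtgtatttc
Kdr: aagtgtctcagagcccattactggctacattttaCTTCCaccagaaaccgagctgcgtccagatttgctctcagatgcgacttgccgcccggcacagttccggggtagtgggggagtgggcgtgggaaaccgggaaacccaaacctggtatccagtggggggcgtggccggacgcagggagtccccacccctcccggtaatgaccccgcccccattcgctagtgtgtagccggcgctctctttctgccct
Flt1: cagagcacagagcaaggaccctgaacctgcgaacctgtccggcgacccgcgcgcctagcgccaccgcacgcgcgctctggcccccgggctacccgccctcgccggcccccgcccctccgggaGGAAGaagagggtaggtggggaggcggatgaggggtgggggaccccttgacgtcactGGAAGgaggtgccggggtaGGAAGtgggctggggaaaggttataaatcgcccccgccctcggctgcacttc
GGAAG on either strand occurred 3 times before Nphs1, 2 times before Emcn, 1 time before Kdr and 3 times before Flt1. It occurred in 64.1% of 32851 windows of this length ahead of mouse genes, 2 or more times in 29.4% and 3 or more times in 10.7%, so its presence alone is common. AGATAA, to which the GATA factors bind, was searched on both strands. It was found only before Nphs1 among these 4, sharing letters with a GGAAG, and is in 9.99% of all windows. GGGCGG, a binding motif of Sp1 family factors, occurred 2 times before Kdr and 3 times before Flt1 on either strand and is in 32.7% of windows. TATAAA occurred once, before Flt1, and is in 12.4%. The GC content was 50.8% for Nphs1, 40.8% for Emcn, 61.6% for Kdr and 70.4% for Flt1, with a median of 52.4% over all windows.

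The libraries held 80874556 to 132958186 counts on genes. Kif3a, deleted only in Pkd1KO+ciliaKO mice, went against the label in 2 female libraries: it was at 6.20 TPM in the library labelled noncystic female 5 and at 20.1 TPM in the library labelled Pkd1KO+ciliaKO female 6. Where leaving out both changed a call of a member, the value or the number of members called without them is therefore also given. Pkd1KO male 4 stood apart in the genes described here, as set out below, and in the macrophage marker list, whose 7 genes summed to 823 TPM in that mouse against a median of 85.7 TPM over the 7 Pkd1KO males. Values from 1 library that decide a result are stated beside it.

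All 9 genes were detected in all 45 libraries. In TPM, which divides by gene length and was scaled by the authors within each sex, Podxl was the highest, with a lowest, median and highest value over the mice of 11.4, 24.5 and 51.8. Pdgfrb came next, at 9.19, 18.6 and 40.8 TPM, and was below Podxl in 41 of 45 mice. Kdr was at 6.30, 11.8 and 32.4 TPM, below Pdgfrb in 41 mice and above Pecam1 in 42. A group with closely spaced levels followed. Pecam1 was at 4.65, 8.83 and 53.3 TPM and lay above Cdh5 in 43 mice. Cdh5 (3.78, 7.39 and 34.3 TPM), Synpo (3.49, 6.89 and 21.6), Flt1 (3.90, 6.88 and 19.1) and Emcn (3.02, 6.27 and 31.2) were not separated: Cdh5 exceeded Synpo in 30 mice, Synpo exceeded Flt1 in 22, and Flt1 exceeded Emcn in 29. Nphs1 was the lowest in every mouse, at 0.502, 1.26 and 2.47 TPM. Its reads may include some of 2 overlapping antisense genes, since whether strand was used in counting is not stated, although the larger of these had a median of 18 counts against 268 for Nphs1.

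**Figure D1:**
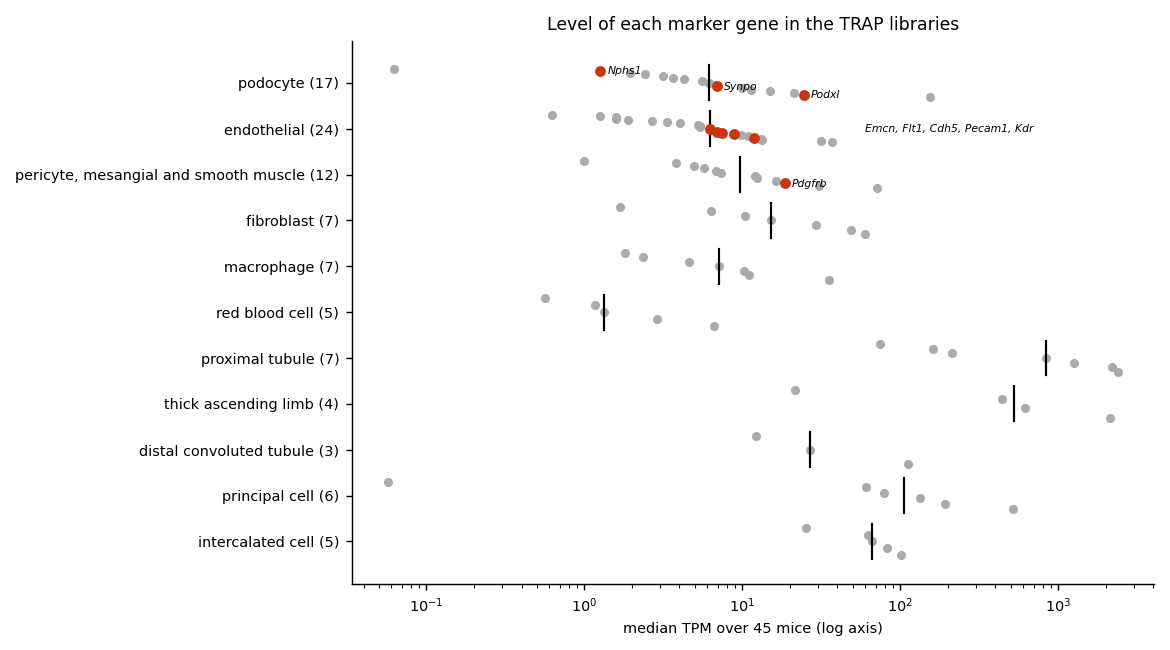
Median TPM over 45 mice (log axis) of the genes of 11 cell type marker lists, with the number of genes of each list in brackets. Red points are the 9 genes described here, grey points the other genes of the lists and vertical bars the list medians, which are 1.33 TPM for red blood cell, 6.19 TPM for podocyte and 6.24 TPM for endothelial genes and reach 843 TPM for proximal tubule genes.

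Summed, the 9 genes took 46.7 TPM in the lowest mouse (noncystic male 5), 90.6 TPM in the median mouse and 275 TPM in the highest (Pkd1KO male 4), or 0.00500%, 0.0105% and 0.0303% of the TPM of all protein-coding genes. The 7 genes of the proximal tubule list, which stand for a cell type that expresses Pax8rtTA, took 5272 to 9678 TPM, with a median of 7092 TPM or 0.789% of the total. Lrp2, the endocytic receptor megalin of that segment, was at 452 to 1333 TPM. The wider lists showed the same order of size as the 9 genes did. The median gene of the podocyte list (17 genes) was at 6.19 TPM, of the endothelial list (24 genes) at 6.24 TPM, and of the list of pericyte, mesangial and smooth muscle genes (12 genes) at 9.67 TPM, beside 843 TPM for proximal tubule, 529 TPM for thick ascending limb, 106 TPM for principal cells, 66.6 TPM for intercalated cells and 26.9 TPM for distal convoluted tubule. Single genes of the tubule lists lay among the members or below them, such as the lowest of the distal convoluted tubule, Trpm6, at 12.2 TPM, and the lowest of principal cells, Avpr2, at 0.0574 TPM. Within the podocyte list the spread was wide, from Trpc6, a cation channel, at 0.0619 TPM to Col4a3, a basement membrane collagen chain, at 155 TPM. Col4a3 stood alone at the top, with Podxl next at 24.5 TPM, and which cells its reads came from was not tested. The endothelial list ran from Sox17 at 0.620 TPM to Eng, the TGF-beta co-receptor endoglin, at 37.2 TPM. No gene of these 3 lists was at 0 in any mouse. Levels of the fibroblast (median gene 15.2 TPM) and macrophage (7.09 TPM) lists were of similar size. Fewer cells of a type and less RNA per cell cannot be told apart in bulk libraries, and reads from captured ribosomes and from RNA carried over in the pulldown are counted alike.

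Across groups the values below are normalized CPM, counts as a share of the library scaled with the TMM method over all 45 libraries, and are given as the lowest, the median and the highest mouse. Nphs1, the slit diaphragm protein nephrin (ENSMUSG00000006649.17, chromosome 7, 30458315 to 30487223), was at 1.15, 2.29 and 3.89 in noncystic males, 1.57, 2.37 and 3.596 in Pkd1KO males and 1.91, 2.46 and 4.15 in Pkd1KO+ciliaKO males. In females it was at 2.46, 2.81 and 4.01, then 1.99, 3.04 and 4.64, then 2.46, 3.27 and 4.61 in the same order of genotypes. All 6 ranges overlapped. Podxl, the sialomucin that coats podocyte foot processes and is also made by endothelium (ENSMUSG00000025608.9, chromosome 6, 31519488 to 31563981), was at 21.6, 44.1 and 69.1, then 32.8, 44.2 and 83.6, then 34.3, 40.8 and 73.4 in the males. In females it was at 30.2, 41.7 and 53.8, then 28.5, 37.8 and 57.4, then 41.8, 45.6 and 72.1. Its male medians lay close together while mice within a group spread widely.

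Synpo, an actin-binding protein of podocyte foot processes (ENSMUSG00000043079.17, chromosome 18), was the member whose groups were furthest apart in males. It was at 11.5, 16.0 and 26.7 normalized CPM in noncystic males, 18.6, 22.1 and 60.6 in Pkd1KO males and 19.0, 24.1 and 35.2 in Pkd1KO+ciliaKO males. The groups overlapped, with the highest noncystic male above the medians of both knockouts. In females it was at 15.7, 19.1 and 33.3 in noncystic, 14.6, 19.2 and 29.0 in Pkd1KO and 22.3, 23.2 and 33.0 in Pkd1KO+ciliaKO mice. The highest noncystic female was replicate 5, a library whose Kif3a went against its label.

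**Figure D2:**
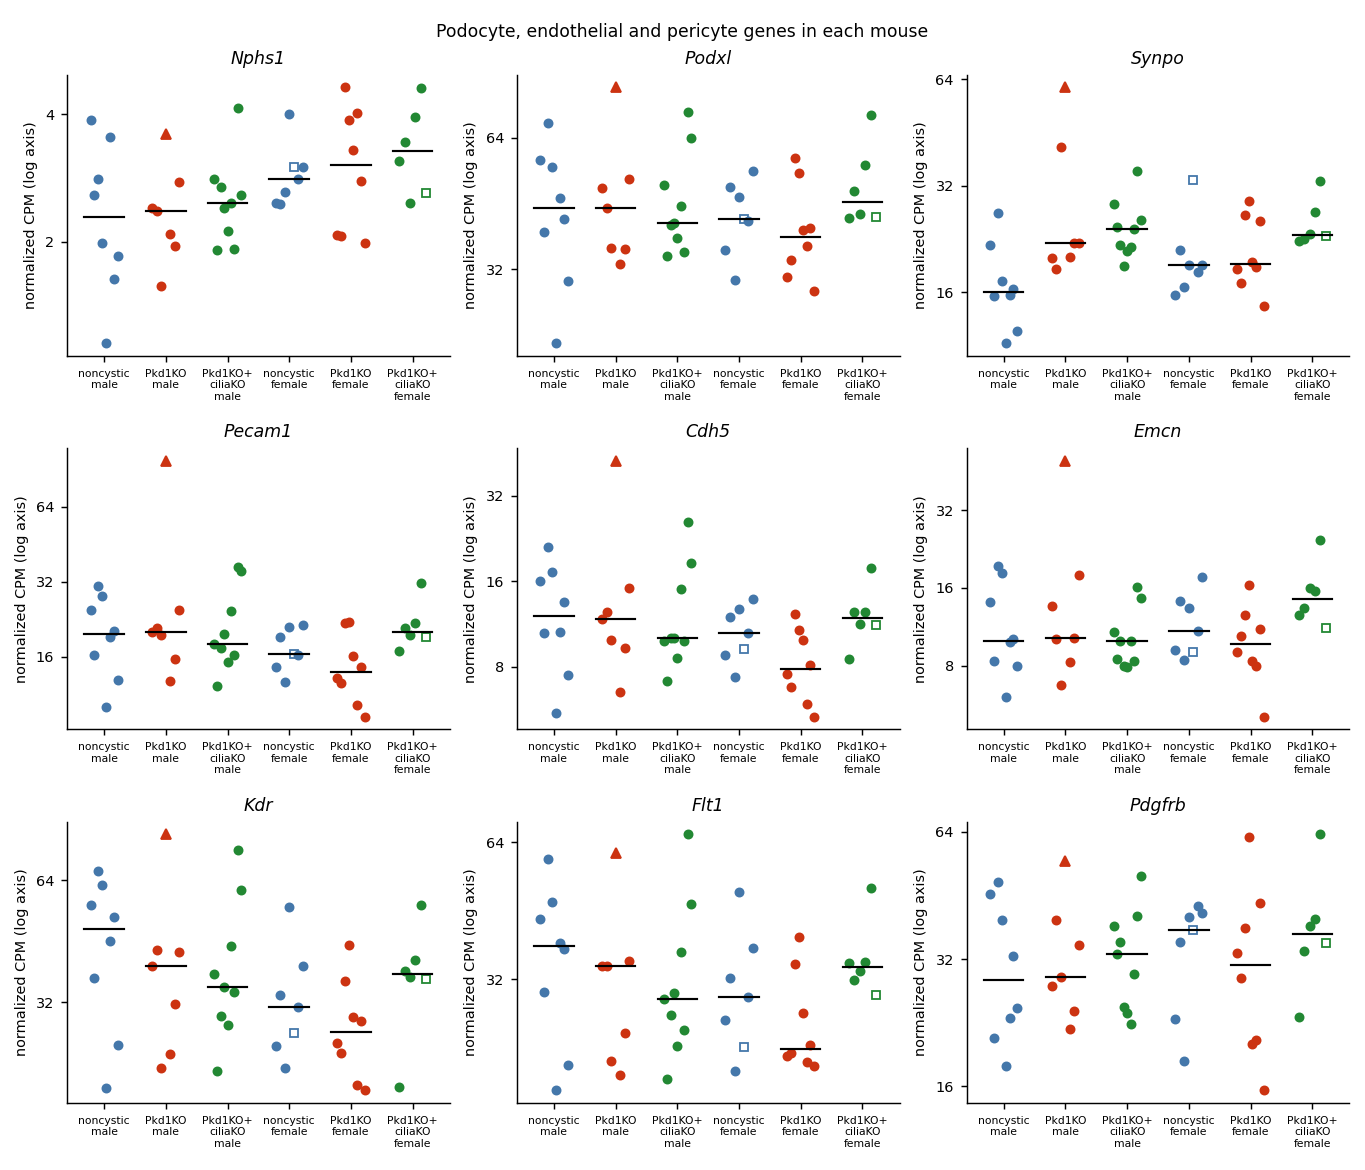
Normalized CPM (log axis) of each of the 9 genes in every mouse, by genotype and sex; each point is a mouse and the black bar is the group median. The triangle is Pkd1KO male 4, the highest of its group in all 9 panels, and open squares are the 2 female libraries whose Kif3a went against their label.

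The endothelial members showed overlapping groups throughout. Pecam1, an adhesion molecule of endothelial junctions that leukocytes and platelets also carry (ENSMUSG00000020717.19, chromosome 11, 106654217 to 106750628), was at 10.02, 19.7 and 30.9 in noncystic, 12.8, 20.1 and 97.5 in Pkd1KO and 12.2, 18.0 and 36.5 in Pkd1KO+ciliaKO males. In females it was at 12.6, 16.4 and 21.4, then 9.20, 13.9 and 21.96, then 16.8, 20.2 and 31.5. The highest Pkd1KO male, replicate 4, was far above every other mouse. Cdh5, the cadherin of endothelial adherens junctions (ENSMUSG00000031871.9, chromosome 8, 104101625 to 104144511), was at 5.50, 12.04 and 21.1, then 6.53, 11.8 and 42.4, then 7.11, 10.1 and 25.9 in males. In females it was at 7.35, 10.51 and 13.9 in noncystic, 5.34, 7.85 and 12.3 in Pkd1KO and 8.54, 11.9 and 17.7 in Pkd1KO+ciliaKO mice. The Pkd1KO females had the lowest median of the 6 groups for both genes.

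Emcn, a sialomucin of capillary and venous endothelium (ENSMUSG00000054690.17, chromosome 3, 137341067 to 137432185), was at 8.42, 10.9 and 17.6 in noncystic, 5.08, 9.73 and 16.4 in Pkd1KO and 11.2, 14.5 and 24.5 in Pkd1KO+ciliaKO females. In males its highest mice were at 19.4, 49.6 and 16.1 and its medians at 9.995, 10.3 and 9.96, in the same order. The Pkd1KO+ciliaKO females therefore had the highest median of the 6 groups. The signalling VEGF receptor Kdr (ENSMUSG00000062960.10, chromosome 5, 75932827 to 75978458) had medians of 48.6, 39.4 and 34.8 in the males and 31.2, 27.0 and 37.5 in the females. Flt1, the second VEGF receptor, which binds the ligand tightly and signals weakly (ENSMUSG00000029648.13, chromosome 5, 147561604 to 147726011), was at 20.1, 29.2 and 49.8 in noncystic, 20.6, 22.5 and 39.6 in Pkd1KO and 29.5, 34.0 and 50.8 in Pkd1KO+ciliaKO females. For both receptors the range of every female group overlapped the others. Pdgfrb, the receptor through which PDGF-B recruits pericytes and mesangial cells (ENSMUSG00000024620.11, chromosome 18), had medians of 28.5, 29.1 and 32.9 in the males and 37.6, 31.0 and 36.6 in the females, and single mice from 15.7 to 63.1.

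The comparison of Pkd1KO with noncystic males asked whether signal from these cells moved with loss of Pkd1 in the tubules. By the quasi-likelihood test of edgeR, with p adjusted by Benjamini-Hochberg over 15991 genes, 0 of the 9 genes passed an adjusted p of 0.05, where 6.3% of all genes did. At an unadjusted p below 0.05 there was 1 of 9, against 22.1% of all genes. That gene was Synpo, 0.77 higher on the log2 scale in Pkd1KO (SE 0.26, adjusted p = 0.0903 by edgeR). DESeq2, which called 10.3% of all genes, gave Synpo an adjusted p of 0.0306, and limma voom (9.22% of all genes) called 0 of the 9. Without Pkd1KO male 4 its log2 difference was 0.49 (adjusted p = 0.201 by edgeR). The other 8 ranged from -0.16 (Flt1) to 0.58 (Pecam1), with the largest values in Pecam1 and Emcn (0.51), and without Pkd1KO male 4 all 8 were below 0. Podocyte genes outside the 9 did pass: of the 17 on the podocyte list 2 rose and 0 fell, among them the transcription factor Wt1 by 0.87 (adjusted p = 0.0483 by edgeR). The median over the podocyte list was 0.26 and over the endothelial list, with 0 of 24 called, 0.27, beside -0.01 over all genes. Without Pkd1KO male 4, 1 of the 17 was called, Wt1 (0.52, adjusted p = 0.0494 by edgeR), and the medians were 0.03 for the podocyte and -0.10 for the endothelial list. The call of Wt1 was lost without each of 11 of the 15 mice. Acta2, smooth muscle actin, was the 1 of 12 pericyte, mesangial and smooth muscle genes that rose, by 1.55 (adjusted p = 0.0493 by edgeR), and without Pkd1KO male 4 it was at 0.95 (adjusted p = 0.133 by edgeR). In the same males the macrophage list had a median of 1.91 (0.43 without Pkd1KO male 4), with Lyz2 2.98 (adjusted p = 0.0283) and Csf1r 0.35 (adjusted p = 0.0193, both by edgeR) higher. Without Pkd1KO male 4 Lyz2 was at 0.88 (adjusted p = 0.0405 by edgeR), and its call was lost without each of 6 of the 15 mice. The red blood cell list had 0 of 5 called and a median of 0.67, or 0.66 without that mouse. The part of those cells in the podocyte and endothelial values was not tested.

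Between Pkd1KO and Pkd1KO+ciliaKO males 0 of the 9 passed, against 3.77% of all genes, and 0 had an unadjusted p below 0.05 (19.7% of all genes), with 0 called by DESeq2 (7.72% of all genes) or limma voom (8.69%). The log2 differences ran from -0.10 (Nphs1) to 0.68 (Emcn, SE 0.34). Emcn was the member furthest from 0, and without Pkd1KO male 4 it was at 0.10. The endothelial list had 0 of 24 called and a median of 0.21, or -0.22 without that mouse.

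Between Pkd1KO+ciliaKO and noncystic males 1 of the 9 passed, Synpo, where 8.89% of all genes passed and 5.63% were higher. Synpo rose by 0.52 (SE 0.15, adjusted p = 0.0375 by edgeR), or 1.43-fold, and it was above the noncystic median in each of the 9 Pkd1KO+ciliaKO males. It was also the 1 member with an unadjusted p below 0.05 (24.3% of all genes). DESeq2 (13.5% of all genes) and limma voom (17.5%) each also called 1 of 9. The adjusted p stood close to the threshold: it was 0.0623 on log2(TPM + 1) with limma, 0.150 with the 3 genotypes in one edgeR fit and 0.0786 with replicate number as a block, and leaving out a single mouse gave an adjusted p above 0.05 for 11 of the 17 mice. The other 8 genes lay between -0.17 (Emcn) and 0.10 (Pecam1), with SE of 0.20 to 0.27. On the podocyte list 2 of 17 rose and 0 fell, Synpo among them, and the median was 0.12. In the same males the macrophage list had a median of 0.48, with Lyz2 higher by 0.84 (adjusted p = 0.0236) and Csf1r at -0.42 (adjusted p = 0.0420, both by edgeR). The red blood cell list had 0 of 5 called, 5 of 5 above 0 and a median of 0.84, and the proximal tubule list 3 of 7 lower and a median of -0.49. Their part in the value of Synpo was not tested. No endothelial gene was called (0 of 24, median 0.07), and of the pericyte, mesangial and smooth muscle genes 1 of 12 fell, Abcc9, a potassium channel subunit of pericytes, by 0.72 (adjusted p = 0.0102 by edgeR).

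**Figure D3:**
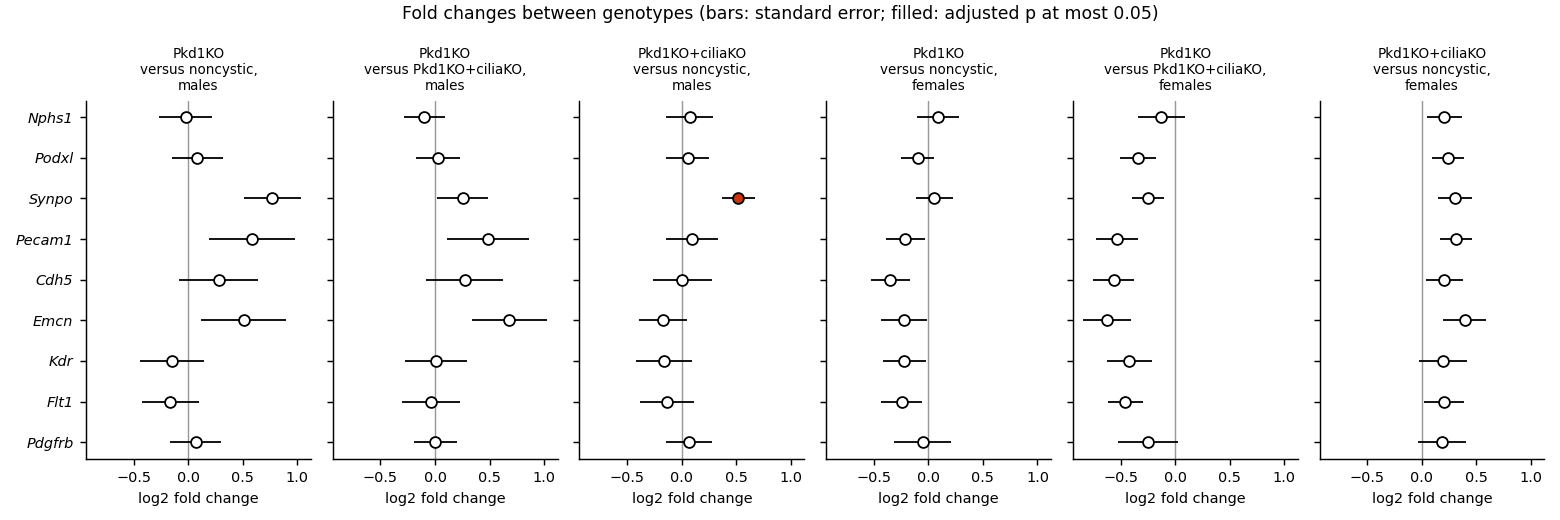
Log2 fold change of the 9 genes in the 3 genotype comparisons of each sex, from edgeR's quasi-likelihood fit; bars are 1 SE and a filled point marks an adjusted p of at most 0.05. The only filled point is Synpo in Pkd1KO+ciliaKO against noncystic males, and all 9 points lie below 0 for Pkd1KO against Pkd1KO+ciliaKO females.

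Between Pkd1KO and noncystic females 0 of 9 passed, against 3.34% of 15968 genes, and 0 had an unadjusted p below 0.05 (16.4%), with 0 called by DESeq2 (6.02% of all genes) or limma voom (5.07%). The 5 endothelial members lay between -0.35 (Cdh5, SE 0.18) and -0.21 (Pecam1, SE 0.18). All 24 endothelial list genes were below 0 with a median of -0.22, and 0 of them passed. The red blood cell list had a median of -0.44 and 0 of 5 called, and its part was not tested.

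Between Pkd1KO and Pkd1KO+ciliaKO females, 5 of the 24 endothelial list genes were lower in Pkd1KO and 0 higher by the test, and the 5 endothelial members lay between -0.62 and -0.42 without passing it. In edgeR 0 of the 9 members passed, where 11.7% of all genes did, but 4 had an unadjusted p below 0.05 (27.7% of all genes), and these were 4 of the 5 endothelial ones. The log2 difference was -0.53 for Pecam1 (SE 0.19, adjusted p = 0.0847), -0.56 for Cdh5 (SE 0.19, adjusted p = 0.0642), -0.62 for Emcn (SE 0.22, adjusted p = 0.0755) and -0.46 for Flt1 (SE 0.16, adjusted p = 0.0775), all by edgeR. Kdr was at -0.42 (SE 0.21), Podxl at -0.34 (SE 0.16), and all 9 members were below 0. DESeq2, with 15.7% of all genes called, called 4, Pecam1, Cdh5, Emcn and Flt1 with adjusted p of 0.0446, 0.0266, 0.0334 and 0.0447, and limma voom, with 16.5% of all genes called, called 5. The median over the endothelial list was -0.44 beside -0.01 over all genes, and 0 of its 24 genes were above 0. Of the 5 that fell, the 3 with the smallest p were Ehd3, an endocytic protein abundant in glomerular endothelium, at -0.72 (adjusted p = 0.00533), the junction protein Esam at -0.41 (adjusted p = 0.0292) and the endothelial matrix protein Mmrn2 at -0.76 (adjusted p = 0.0307, all by edgeR). The podocyte list had 0 of 17 called and a median of -0.16. The list of pericyte, mesangial and smooth muscle genes had 0 of 12 called and a median of -0.26. One macrophage gene of 7, Csf1r, rose, by 0.78 (adjusted p = 0.00581 by edgeR), and the median of that list was 0.01. The red blood cell list had 0 of 5 called and 0 of 5 above 0, with a median of -0.64, and the intercalated cell list 1 of 5 lower and 0 of 5 above 0, with a median of -0.36. The part of these cells in the endothelial values was not tested. Without the 2 libraries whose Kif3a went against the label, 4 of 24 endothelial genes fell and the median was -0.47. Leaving out single mice left 1 (without Pkd1KO female 2) to 12 (without Pkd1KO female 4) of the 24 called, with a median of -0.55 to -0.38, and of the 3 genes named Ehd3 was called whichever of the 14 mice was left out. Summed over the 24 endothelial genes, the Pkd1KO females took 117, 179 and 281 TPM (lowest, median and highest) and the Pkd1KO+ciliaKO females 194, 268 and 396 TPM, so that the groups overlapped.

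Pkd1KO+ciliaKO females set against noncystic females gave 0 of 9 called, against 2.54% of all genes, with 1 member (Pecam1, 0.32, SE 0.15) at an unadjusted p below 0.05 (21.4% of all genes) and 0 called by DESeq2 (8.01%) or limma voom (8.5%). All 9 members were above 0, from 0.19 to 0.39. Synpo was at 0.30 (SE 0.16, adjusted p = 0.283 by edgeR). Its call depended on the library labelled noncystic female 5: without that mouse it was at 0.46 (adjusted p = 0.0259), and without both libraries whose Kif3a went against the label at 0.49 (adjusted p = 0.0243, both by edgeR). All 24 endothelial list genes were above 0, with a median of 0.22 and 0 called. The female comparisons share the Pkd1KO+ciliaKO or noncystic mice, so their directions are not separate observations. In none of the 6 genotype comparisons were the groups of any member free of overlap, where 2.13%, 1.12% and 1.07% of all genes in the male comparisons and 1.07%, 3.01% and 1.75% in the female ones, in the order given here, had groups that did not overlap.

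Males and females were compared within each genotype. In noncystic mice 0 of 9 passed, against 27.5% of 15828 genes, and 0 had an unadjusted p below 0.05 (38.6%), with 0 called by DESeq2 (30.9% of all genes) or limma voom (39.7%). Kdr was furthest from 0, at 0.47 higher in males (SE 0.25). In Pkd1KO mice 0 of 9 passed, against 27.2%, and 2 had an unadjusted p below 0.05 (38.9%): Pecam1 was 1.02 higher in males (SE 0.38, adjusted p = 0.0585) and Cdh5 0.89 higher (SE 0.33, adjusted p = 0.0568, both by edgeR). DESeq2 (30.8% of all genes) called Cdh5 (adjusted p = 0.0211) and limma voom (36.6%) called 0. Without Pkd1KO male 4 they were 0.34 (adjusted p = 0.218) and 0.38 (adjusted p = 0.172, both by edgeR). On the endothelial list 3 of 24 were higher in Pkd1KO males, the transcription factor Erg by 1.18 (adjusted p = 0.00152), Egfl7 by 0.99 (adjusted p = 0.0180) and the transcription factor Sox18 by 1.16 (adjusted p = 0.0276, all by edgeR), with a median of 0.66. Without Pkd1KO male 4 there were again 3 higher, at 0.86, 0.55 and 0.46 for these genes, and the median was 0.23. Leaving out other mice gave 2 (without Pkd1KO female 1) to 6 (without Pkd1KO male 5). The macrophage list had a median of 1.58 in the same comparison, or 0.07 without Pkd1KO male 4. The red blood cell list had 0 of 5 called but all 5 above 0, with a median of 1.16, or 1.15 without that mouse. The part of both was not tested.

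In Pkd1KO+ciliaKO mice 0 of 9 passed, against 14.6% of all genes, and 2 had an unadjusted p below 0.05 (30.0%). Emcn was 0.57 lower in males on the log2 scale (log2 difference -0.57, SE 0.19, adjusted p = 0.0502 by edgeR), with 7.91, 9.96 and 16.1 normalized CPM in the 9 males and 11.2, 14.5 and 24.5 in the 6 females. The 2 groups overlapped. Nphs1 was at -0.39 (SE 0.18, adjusted p = 0.148 by edgeR). DESeq2 (19.7% of all genes) called 1 member, Emcn (adjusted p = 0.0222), and limma voom (41.6%) called 3. Whether a genotype difference itself differed between males and females was tested with an interaction term over all 45 mice. For Pkd1KO against noncystic 0 of 9 passed (0.0126% of all genes did), and 1 had an unadjusted p below 0.05 (8.08%), Synpo at 0.71 (SE 0.29, adjusted p = 0.467 by edgeR). For Pkd1KO against Pkd1KO+ciliaKO 0 of 9 passed (0.221% of all genes), and 2 had an unadjusted p below 0.05 (7.94%), Emcn at 1.29 (SE 0.42, adjusted p = 0.297) and Pecam1 at 1.01 (SE 0.42, adjusted p = 0.520, both by edgeR). For Pkd1KO+ciliaKO against noncystic 0 of 9 passed (0.0316%) and 0 had an unadjusted p below 0.05 (5.49%). DESeq2, with 0.183%, 0.455% and 0.133% of all genes called in these 3 tests, and limma voom, with 0.0%, 0.84% and 1.4%, called 0 members in each. The interactions were not fitted with single mice left out in turn. Pkd1KO male 4, which is among the 45 mice, exceeded the median of the other Pkd1KO males by 4.85-fold in Emcn, 4.92-fold in Pecam1 and 2.87-fold in Synpo. Its part in the interaction values was not tested by itself.

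Single mice of 1 group lay further apart in these genes than the group medians did, and the members deviated together. After subtracting the group mean from log2(normalized CPM + 0.1), the 5 endothelial genes deviated on average by -0.97 in noncystic male 5, which was below its group mean in all 9 genes, and by 0.76 in noncystic male 3, 0.94 in Pkd1KO+ciliaKO male 8, 0.65 in Pkd1KO+ciliaKO male 9 and 0.59 in Pkd1KO+ciliaKO female 5, which were above their group means in all 9. Pkd1KO male 4 deviated by 1.56. This last mouse exceeded the median of the other 6 Pkd1KO males by 4.92-fold in Pecam1, 4.85-fold in Emcn, 3.91-fold in Cdh5, 2.87-fold in Synpo, 2.33-fold in Kdr, 2.09-fold in Podxl, 2.07-fold in Flt1, 1.93-fold in Pdgfrb and 1.62-fold in Nphs1. All 24 endothelial list genes and all 7 macrophage genes were highest of their group in that mouse, the macrophage list by a mean deviation of 2.82 and the endothelial list by 1.44, while the proximal tubule list lay 0.78 below its group mean. The red blood cell list deviated by 0.22.

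**Figure D4:**
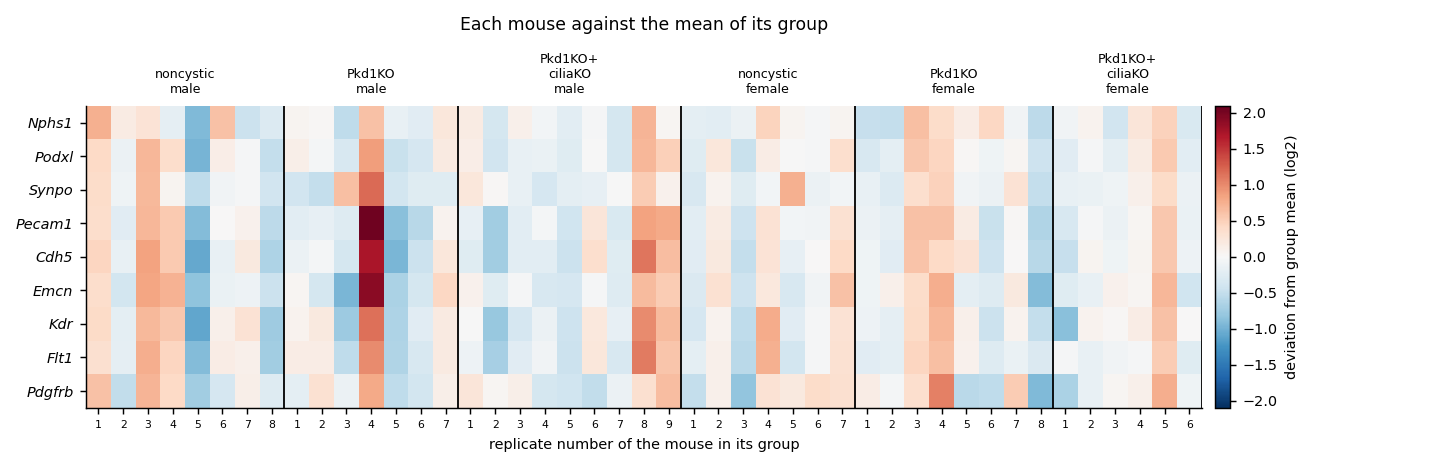
Deviation of log2(normalized CPM + 0.1) from the group mean for each of the 45 mice (columns) and 9 genes (rows). Red cells lie above and blue cells below the group mean, and most mice hold 1 colour over most genes, with Pkd1KO male 4 the reddest and noncystic male 5 the bluest.

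Correlations across mice were tested for 4 pairs of members in each sex, 8 in all, on log2(normalized CPM + 0.1), with permutation p adjusted over the 8. Cdh5 and Pecam1, both of endothelial junctions, had r = 0.972 in 24 males (rho = 0.974) and r = 0.973 in 21 females (rho = 0.916), with an adjusted permutation p of 2.67e-05 for r in each sex and 4e-05 for rho, from raw values at the smallest that 100000 resamples can give. Nphs1 and Podxl had r = 0.801 in males (rho = 0.797, adjusted permutation p 2.67e-05 and 8e-05) and r = 0.754 in females (rho = 0.627, adjusted permutation p 0.00024 and 0.00374). The r of Nphs1 with Podxl was thus below that of the endothelial pair in each sex, a difference that was not tested. Podxl is also made by endothelium, so this pair does not stand for podocytes alone. Nphs1 and Cdh5, of different cell types, had r = 0.666 in males (rho = 0.644, adjusted permutation p 0.000571 and 0.00144) and r = 0.565 in females (rho = 0.512, adjusted permutation p 0.00785 and 0.0192). Cdh5 and Pdgfrb had r = 0.765 in males (rho = 0.698, adjusted permutation p 4e-05 and 0.00074) and r = 0.737 in females (rho = 0.670, adjusted permutation p 0.00024 and 0.00168). Leaving out the 2 mice furthest from the median on the x axis left r at 0.527 to 0.972 in males and 0.432 to 0.956 in females. The lowest of these, Nphs1 with Cdh5 in females, then had an adjusted permutation p of 0.0642, so that relation rested on Pkd1KO female 3 and Pkd1KO+ciliaKO female 5. As deviations from the group means the 8 values of r were 0.611 to 0.977, so the relations also held within groups.

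Over all 45 mice and all 36 pairs of members, given as a description, the deviations of endothelial members had r of 0.843 to 0.976 with each other, median 0.899. Endothelial with podocyte members had r of 0.541 to 0.924, endothelial members with Pdgfrb 0.672 to 0.778, and podocyte members with each other 0.507 to 0.786. The mean endothelial deviation had r = 0.0462 with log2 depth and r = 0.615 with the log2 TMM scaling factor (0.499 without Pkd1KO male 4). It had r = 0.784 with the macrophage list (0.720 without that mouse), 0.630 with the fibroblast list, 0.487 with the red blood cell list and -0.360 with the proximal tubule list (-0.179 without it). The part of these other cell types and of the scaling in the shared movement was not tested.

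The 3 genes most like each member were then found by the same r over 45 mice among 15827 other protein-coding genes. Nphs1 was closest to Ptpro, a podocyte tyrosine phosphatase (r = 0.875), to Sema3g, a semaphorin (0.841), and to Ddn, dendrin of the slit diaphragm (0.788). Podxl, although listed as a podocyte gene, was closest to Plvap, the diaphragm protein of fenestrated endothelium (0.942), to the natriuretic peptide receptor Npr1 (0.939), and to the lymphatic and fenestrated endothelial receptor Flt4 (0.935). Synpo was closest to Arhgap23 (0.907), Ppp1r18 (0.898) and Nes, the intermediate filament nestin of podocytes (0.883). Pecam1 and Cdh5 were each closest to the other (0.976) and then to Robo4, an endothelial guidance receptor (0.971 and 0.966). Next came Plvap for Pecam1 (0.963) and, for Cdh5, the angiopoietin receptor Tek (0.965). Emcn was closest to Srgn, the proteoglycan serglycin of blood and endothelial cells (0.946), to Cd34 (0.922) and to Gimap6 (0.922). Kdr was closest to Tek (0.943), Flt1 (0.939) and Cd300lg (0.934). Flt1 was closest to the vascular phosphatase Ptprb (0.961), to Tek (0.957) and to Kdr. Pdgfrb was closest to Mrc2, a collagen receptor of fibroblasts (0.967), to Svep1 (0.965) and to the complement protease C1s1 (0.948). These are descriptions, since all genes share the same 45 libraries.

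**Figure D5:**
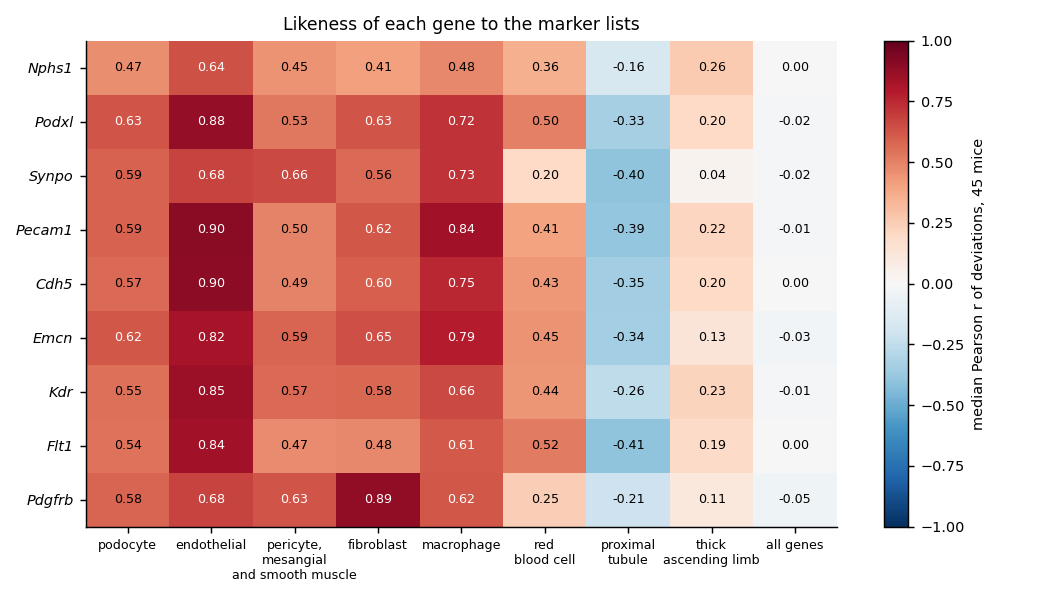
Median r over 45 mice between each of the 9 genes and the genes of each marker list, from deviations of log2(normalized CPM + 0.1) from the group means. The endothelial column is the highest for the 5 endothelial genes, for Podxl (0.881) and for Nphs1 (0.639), the fibroblast column for Pdgfrb (0.886) and the macrophage column for Synpo (0.726).

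Against whole lists, the median r of Podxl was 0.881 with the endothelial and 0.6255 with the podocyte list, and that of Nphs1 0.639 and 0.467. Synpo had 0.679 with the endothelial, 0.586 with the podocyte and 0.726 with the macrophage list, and without Pkd1KO male 4 these were 0.578, 0.475 and 0.592. Pecam1 (0.902) and Cdh5 (0.896) stood highest with the endothelial list, and Emcn was at 0.821, Kdr at 0.852 and Flt1 at 0.843. Pdgfrb had 0.886 with the fibroblast list and 0.628 with the list of pericyte, mesangial and smooth muscle genes. The median r of all 3 podocyte members was thus higher with the endothelial list than with the podocyte list they stand on. That of Pdgfrb was higher with the fibroblast list than with its own. A list median does not give the likeness to single genes: Ptpro, the gene closest to Nphs1 (r = 0.875), is on the podocyte list. How specific the genes of each list are to their cell type was not tested. Medians with the proximal tubule list were below 0 for all 9, from -0.406 (Flt1) to -0.159 (Nphs1), and with all genes they lay between -0.046 and 0.003.

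Among the 18 ligands and receptors of the VEGF, angiopoietin and PDGF systems, which include Kdr, Flt1 and Pdgfrb, the highest was the ligand Vegfb at a median of 259 TPM and the lowest the ligand Pgf at 0.341 TPM. Vegfb rose in Pkd1KO males by 0.74 (adjusted p = 0.000682) and in Pkd1KO females by 0.70 (adjusted p = 0.00109) against noncystic mice, and in Pkd1KO+ciliaKO males by 0.56 (adjusted p = 0.00371, all by edgeR). It was the only one of the 18 that passed in Pkd1KO against noncystic females, where 0 fell and 3.34% of all genes passed. In males 2 of 18 rose and 0 fell in that comparison, where 6.3% of all genes passed. The second was the PDGF ligand Pdgfa, by 0.26 (adjusted p = 0.0422 by edgeR), a call lost without each of 10 of the 15 mice. Pdgfb, the ligand of Pdgfrb, rose by 0.30 in Pkd1KO+ciliaKO against noncystic males (adjusted p = 0.0255 by edgeR). There again 2 of 18 rose and 0 fell, and 8.89% of all genes passed. Between Pkd1KO and Pkd1KO+ciliaKO females 1 of 18 rose, where 11.7% of all genes passed. That gene was Vegfb, by 0.44 (adjusted p = 0.00573 by edgeR), and the median of the list was -0.24. No receptor of this list passed in any of the 6 genotype comparisons.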

How the data were processed

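TRAP RNASeq libraries of 45 mice were analysed from the deposited tables. The authors used fastp 0.20.0 for trimming, STAR 2.7.9 for alignment (GRCm38.p6) and featureCounts 2.0.0 for counting, and deposited raw counts for 55401 genes and TPM for protein-coding genes. The strand and multimapping settings are not given in the sources used here. The deposited TPM were made by the authors for each sex separately after dropping genes that reached 6 counts in fewer than 20% of its mice, so TPM are compared between genes and, between sexes, only as ranges over all mice. Depth was 80874556 to 132958186 counts per mouse, where 3 counts correspond to 0.0226 to 0.0371 CPM, and all members lay above this. Replicates are separate mice, and counts of every pair of mice of a group differed by far more than sampling noise (chi-square per degree of freedom of at least 53.6).

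Counts of 15991 genes in males, 15968 in females and 15828 in both were fitted with edgeR 4.0.16 (TMM scaling, quasi-likelihood test, Benjamini-Hochberg adjusted p of at most 0.05) for each pair of genotypes within a sex, each genotype between sexes, and the interaction. In sex comparisons the first group is male. DESeq2 1.42.0, limma 3.58.1 (voom with sample weights, and log2(TPM + 1) or log2(TPM + 0.1)), other scaling, no filter, all annotated genes, the 3 genotypes in one fit, replicate number as a block, leaving out 2 female libraries whose Kif3a went against the label or 4 males lying toward the females on the first principal component (noncystic male 3, Pkd1KO male 4 and Pkd1KO+ciliaKO males 6 and 8), and each mouse left out in turn were alternatives. The TPM scales and the 3 genotypes in one fit were used for genotype comparisons only. Mice were left out in turn for the genotype and sex comparisons, and not for the interactions. Tested on simulated data with known changes for Pkd1KO against noncystic males (15991 genes), the edgeR fit called 68% of genes changed 1.5-fold and 88% of those changed 2-fold. The changed genes were drawn from the tested genes at large. In that comparison the 9 members had SE of 0.234 to 0.392, against a median of 0.117 over all genes. These rates therefore do not give the chance of calling a member that changed. Correlations across mice used 100000 resamples (scipy 1.17.1).

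The members, lists and tests were chosen with earlier results of these data known. Genes named besides the 9 members are Pkd1, Kif3a and Pax8, per comparison and list at most the 3 called genes with the smallest p, the highest and lowest gene of a list, Lrp2 as a level for comparison, and the 3 genes most like each member by Pearson r of deviations from the group means. The values of 1 gene of the podocyte list are not reported here. The promoter windows were taken from RefSeq, and 4 of 9 members matched. The leave-out of Pkd1KO male 4 from levels and likeness was added after seeing the data.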

Additional observations from a re-analysis of the deposited data

Results flagged for a closer look

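In 12 of 54 group values tested (9 genes in 6 groups), the highest mouse lay apart from the rest of its group by Dixon's criterion, which flags about 1 in 20 groups by chance alone, and the 54 are not independent because the genes moved together. Pkd1KO male 4 accounted for 6 of them: it had 97.5 normalized CPM of Pecam1 against 24.7 in the next Pkd1KO male, 42.4 of Cdh5 against 15.1, 49.6 of Emcn against 18.0, 83.0 of Kdr against 43.0, 60.7 of Flt1 against 35.1, and 83.6 of Podxl against 51.4. Pkd1KO+ciliaKO female 5 stood apart in 3 endothelial genes, with 31.5 of Pecam1 against 21.9 in the next mouse, 24.5 of Emcn against 16.0 and 50.8 of Flt1 against 34.8.

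Nphs1 was apart in Pkd1KO+ciliaKO male 8, at 4.15 normalized CPM against 2.81 in the next mouse, and in noncystic female 4, at 4.01 against 3.01. Synpo was apart in the library labelled noncystic female 5, at 33.3 against 21.004 in the next noncystic female, and Kif3a in that library went against its label.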

How the results depend on the processing

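Of the 242 numbers of members called under alternatives, 200 equalled the reported one. For Pkd1KO against noncystic males, reported as 0, DESeq2 and the 3 genotypes in one fit each gave 1, and leaving out single mice gave 0 to 1 (1 without noncystic male 3). For Pkd1KO+ciliaKO against noncystic males, reported as 1, log2(TPM + 1), log2(TPM + 0.1) and the 3 genotypes in one fit each gave 0, as did leaving out any of noncystic males 2 and 4 to 8 or Pkd1KO+ciliaKO males 1, 2, 7, 8 and 9 (range 0 to 1). For Pkd1KO against Pkd1KO+ciliaKO females, reported as 0, DESeq2 gave 4, limma voom 5, log2(TPM + 1) 2, log2(TPM + 0.1) 4 and the 3 genotypes in one fit 1, and leaving out single mice gave 0 to 4 (3 without Pkd1KO female 3, 4 without Pkd1KO female 4 and 1 without Pkd1KO+ciliaKO female 1). For Pkd1KO+ciliaKO against noncystic females, reported as 0, leaving out the 2 libraries whose Kif3a went against the label gave 1, and single mice 0 to 1 (1 without noncystic female 5). Between sexes in Pkd1KO mice, reported as 0, DESeq2 gave 1 and leaving out single mice 0 to 2 (2 without Pkd1KO male 5 or 6, 1 without Pkd1KO male 3 or female 3). Between sexes in Pkd1KO+ciliaKO mice, reported as 0, DESeq2 gave 1, limma voom 3, leaving out the 2 female libraries 1, leaving out males 6 and 8, which lie toward the females on the first principal component, 2, and single mice 0 to 2 (2 without male 8, 1 without male 9, female 1 or female 6). The correlation of Nphs1 with Cdh5 in females fell to r = 0.432 without the 2 furthest mice. The log2 difference of Flt1 between sexes in Pkd1KO+ciliaKO mice, -0.09, lay between -0.28 (without Pkd1KO+ciliaKO male 8) and 0.035 (without Pkd1KO+ciliaKO female 5) when single mice were left out. The cause of these changes was not tested.

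Same-numbered mice did not deviate together in every pair in any comparison. Over the comparisons their r of deviations ran from -0.329 (Pkd1KO against Pkd1KO+ciliaKO males) to 0.489 (between sexes in Pkd1KO mice). Such values cannot show whether same-numbered mice shared a step of handling, and that was not tested. With replicate number as a block 0 members were called in Pkd1KO+ciliaKO against noncystic males and 1 between sexes in Pkd1KO+ciliaKO mice (Emcn), other counts of members being equal to those reported. Over all genes the block moved calls from 1008 to 800, from 603 to 170 and from 1422 to 764 in males and from 533 to 294, from 1869 to 612 and from 405 to 100 in females.

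Over all genes, other settings that moved a number of calls by over 1.5 times were these. In Pkd1KO against noncystic males 1008 became 1640 with DESeq2, 625 on log2(TPM + 1) and 669 on log2(TPM + 0.1). In Pkd1KO against Pkd1KO+ciliaKO males 603 became 1234 with DESeq2, 1389 with limma voom and 929 with the 3 genotypes in one fit. In Pkd1KO+ciliaKO against noncystic males 1422 became 2157 with DESeq2, 2803 with limma voom and 2240 without noncystic male 3 and Pkd1KO+ciliaKO males 6 and 8. In Pkd1KO against noncystic females 533 became 962 with DESeq2 and 809 with limma voom. In Pkd1KO+ciliaKO against noncystic females 405 became 1279 with DESeq2, 1357 with limma voom, 1000 and 1007 on the TPM scales and 926 without the 2 libraries. Between sexes in Pkd1KO+ciliaKO mice 2303 became 6584 with limma voom and 5500 without males 6 and 8. The interactions (Pkd1KO against noncystic, Pkd1KO against Pkd1KO+ciliaKO and Pkd1KO+ciliaKO against noncystic) had 2, 35 and 5 calls, which became 29, 72 and 21 with DESeq2, 0, 133 and 222 with limma voom and 0, 22 and 3 with the block. The first and the last became 1 and 2 without the 2 libraries and 0 and 20 without the 4 males.

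Among the fold changes of members not followed singly, 158 of 1823 alternative values had the opposite sign, 0 of them with a call on either side. The largest reported log2 difference among those was 0.58 (Pecam1, Pkd1KO against noncystic males).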

Other observations

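Of the 12 pericyte, mesangial and smooth muscle genes, 2 differed between sexes in noncystic mice, where 27.5% of all genes did. These were Kcnj8 and Abcc9, the pore and the regulatory subunit of the potassium channel of pericytes. They were higher in males by 1.197 and 0.87 on the log2 scale (adjusted p = 1.01e-06 and 0.000757 by edgeR), while Pdgfrb was at -0.09. The same 2 genes were higher in Pkd1KO males than females, by 1.10 and 0.50 (adjusted p = 0.000226 and 0.0359 by edgeR), where Pdgfrb was at 0.01 and 27.2% of all genes passed. Neither gene passed between the sexes in Pkd1KO+ciliaKO mice. The call of Abcc9 in Pkd1KO mice was lost without each of 7 of the 15 mice, with an adjusted p of up to 0.0896 by edgeR (without Pkd1KO male 2). In noncystic mice Angpt1, the ligand of Tek, was lower in males by a log2 difference of -0.37 (adjusted p = 0.0183 by edgeR), and it was also lower in Pkd1KO males (-0.49, adjusted p = 0.00426) and Pkd1KO+ciliaKO males (-0.41, adjusted p = 0.0114, both by edgeR). Between sexes in Pkd1KO+ciliaKO mice 14.6% of all genes passed. Lum, the fibroblast proteoglycan lumican, was lower in males of each genotype, at -0.96, -1.14 and -0.92 in noncystic, Pkd1KO and Pkd1KO+ciliaKO mice (adjusted p = 0.00981, 0.0429 and 0.0411 by edgeR). Its call was lost without each of 11 of the 15 Pkd1KO mice and each of 10 of the 15 Pkd1KO+ciliaKO mice, and without 0 of the 15 noncystic mice.

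The ratio of Cdh5 to Pecam1 in TPM ran from 0.645 to 1.05 over the 45 mice with a median of 0.861, the lowest being Pkd1KO male 4. Flt1 against Kdr ran from 0.479 to 1.17 with a median of 0.573. The highest of these was Pkd1KO+ciliaKO female 1.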
